A study of Mus musculus with 39 samples.

Results

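The genes described here drive and carry out mitosis: CDK1 and its cyclins, the mitotic kinases, the kinetochore, the spindle checkpoint, the motors of the spindle and the machinery of cytokinesis. They were chosen by name as 37 genes, and each was represented by its probe set with the highest mean over 39 arrays. A probe set marked _x_at, which may cross-hybridise, was passed over where the gene had another, and this decided the choice for Aurkb, Cdc20 and Kif2c. Of the 37, 36 were measured with a probe set of their own, among 18194 genes in all. Ccnb1, cyclin B1, was the exception, since no probe set carried it alone in the annotation used here.

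The series, titled for the Sleeping Beauty transposon used in insertional mutagenesis, holds log2 expression values of total RNA from mouse tissue on Affymetrix arrays, 1 array per sample. Quadruple mice, labelled SB/Tg/K5Cre/Bcat, numbered 15 and were read on 19 arrays of breast tissue. Triple K5Cre mice, labelled SB/Tg/k5Cre, numbered 8, with 1 breast array each. From 2 triple Bcat mice, labelled SB/Tg/Bcat, came 3 arrays of breast. The masses were 2 breast arrays from 2 Bcat +/- animals, and the ventral tumours were 3 arrays of tumours from 1 Bcat +/- animal. Sample names of the masses and ventral tumours begin with C57, unlike those of the other groups, and the labels say no more of strain, so genotype, tissue and what that name stands for cannot be told apart in their comparisons. The 4 arrays of normal mammary gland were from 4 different mice, of which 2 were triple K5Cre (replicates 3 and 4), 1 was triple Bcat (replicate 1) and 1 was quadruple (replicate 2). All 5 comparisons with gland rest on these 4 arrays, and they carry the same engineered elements as the breast samples of their genotype. SB and Tg are shared by the quadruple group, both triple groups and all 4 glands. The labels do not spell out the 4 elements, do not call the quadruple and triple breast samples tumours, and give no age or sex. Animals were read from the identifiers in the sample names, and where 1 animal gave several arrays the fit treated them as linked.

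A cell enters mitosis when cyclin-bound CDK1 becomes active, after which Aurora and polo-like kinases build the spindle and attach it to chromosomes at the kinetochore. The spindle checkpoint holds the anaphase-promoting complex back until every chromosome is attached, and the central spindle and contractile ring then split the cell. Most of these genes are transcribed late in the cell cycle and are low in resting cells, so in a tissue they are widely read as a measure of dividing cells.

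The whole table set the frame for these genes. The median log2 value of an array was 5.10 at the lowest and 5.27 at the highest, and precision was limited by how many arrays a group had. Epcam, an epithelial surface marker, lay between 8.13 and 12.88 in quadruple arrays and between 11.70 and 12.40 in glands, so epithelial RNA was measured in each of them. The mean of 12 adipocyte markers lay between 5.33 and 11.55 in quadruple breast, between 4.48 and 8.29 in triple K5Cre breast and between 11.37 and 11.79 in gland. The mean of 15 skeletal muscle markers lay between 4.27 and 10.43 in quadruple, between 4.28 and 10.82 in triple K5Cre and between 10.23 and 11.66 in gland. All 15 muscle genes and 11 of 12 adipocyte genes were called lower in quadruple than in gland, where 9.66% of all genes were called lower (9.79% in triple K5Cre). In bulk tissue, fewer cells of a type and less RNA per cell cannot be told apart. The quadruple array with replicate number 9, 1 of 3 from animal Q648, stood apart from its group with adipocyte and muscle means of 10.7 and 10.2, both near those of gland. Values that turn on it are given with and without it.

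All 36 measured genes rose in both quadruple and triple K5Cre breast relative to normal gland. In quadruple breast, with the chosen probe sets, the median log2 difference was 1.71, with a range from 1.30 for Kif2c to 2.95 for Cenpe, and every gene was at least 2-fold higher. In triple K5Cre breast the median was 2.00, with a range from 1.58 for Mad2l1 to 3.07 for Cenpe. The calls used limma with Benjamini-Hochberg adjustment over 18194 genes at an adjusted p under 0.05, and the genes' adjusted p lay between 1.1e-05 and 0.00785 in quadruple and between 9.41e-06 and 0.00141 in triple K5Cre. Of all genes, 5.7% were called higher in quadruple and 7.44% in triple K5Cre. The median difference over all genes was 0.01 in quadruple and 0.02 in triple K5Cre.

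**Figure D1:**
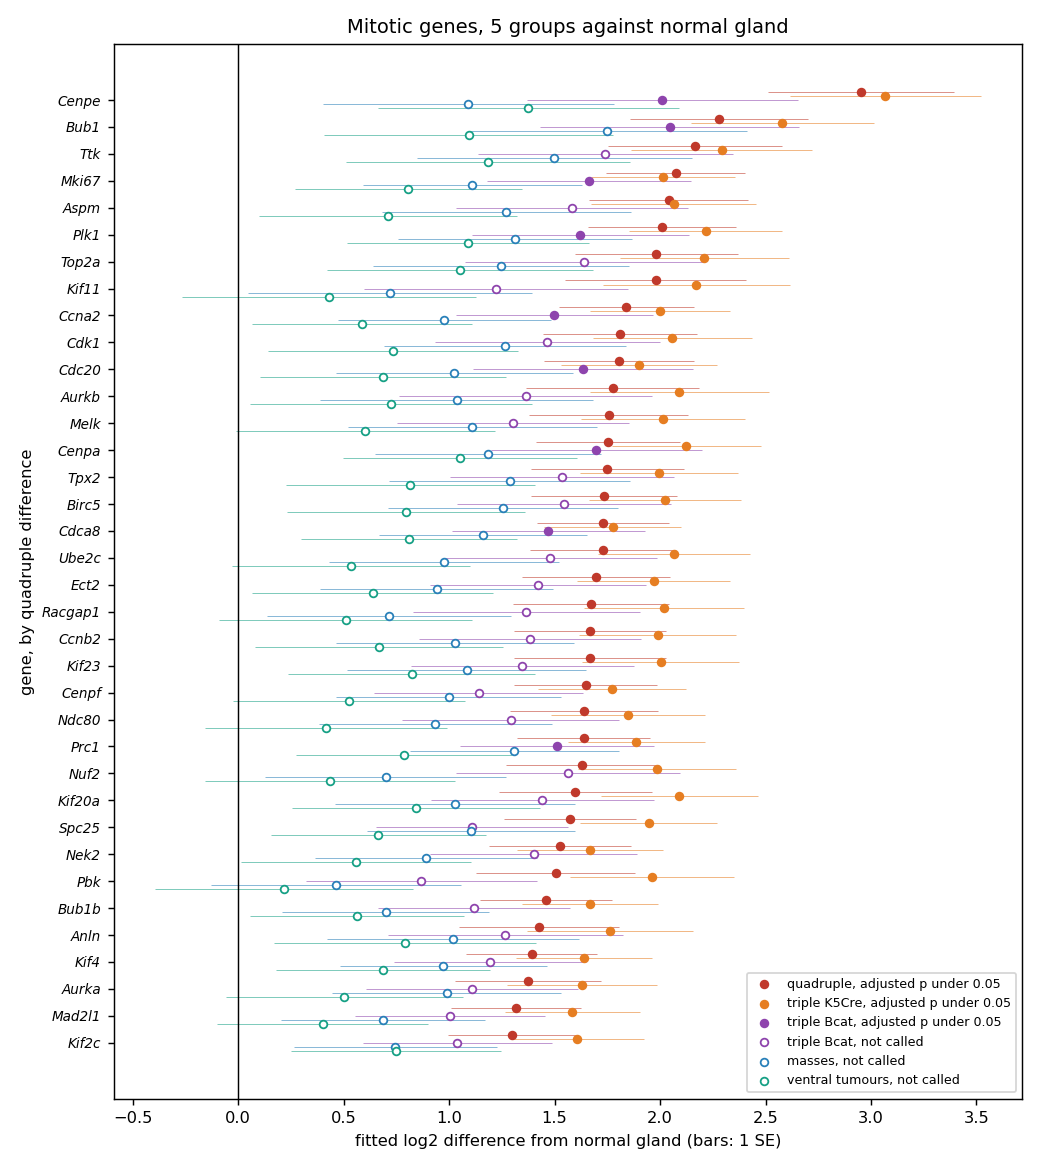
Fitted log2 difference from normal gland for each of the 36 mitotic genes (rows, ordered by the quadruple difference) in the 5 other groups, with bars of 1 standard error. Filled points passed an adjusted p of 0.05 in limma and open points did not. All 36 points are filled for quadruple and triple K5Cre, 9 are filled for triple Bcat and 0 for the masses and ventral tumours.

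Fewer of the genes passed the test in the 3 groups whose labels do not name K5Cre, which had 2 or 3 arrays each. Their standard errors lay between 0.45 and 0.71, beside 0.31 to 0.45 in quadruple and triple K5Cre, so the counts do not compare the groups with each other. In triple Bcat breast, 9 of 36 genes were called higher, where 1.74% of all genes were, and the median difference was 1.43. These 9 were Bub1, Cenpe, Cenpa, Mki67, Cdc20, Plk1, Prc1, Ccna2 and Cdca8, with adjusted p between 0.029 and 0.0494 in limma, and 34 of the 36 had an unadjusted p under 0.05. In the masses 0 of 36 were called, where 2.6% of all genes were called higher. Their median difference was 1.03, and 13 of the 36 had an unadjusted p under 0.05 in limma. The median was 1.54 without the first mass and 0.53 without the other. In the ventral tumours 0 were called by limma, where 0.813% of all genes were called higher. There the median was 0.70, and 0 of the 36 had an unadjusted p under 0.05. All 36 differences were above 0 in each of these groups, and 0 of the 36 genes were called lower in any of the 5, where 9.66% of all genes were called lower in quadruple, 9.79% in triple K5Cre, 5.38% in triple Bcat, 4.68% in the masses and 3.22% in the ventral tumours. The 9 calls in triple Bcat depended on single arrays: without triple Bcat replicate 1, 2 or 3 they numbered 2, 0 and 4, and without gland replicate 1, 2 or 3 they numbered 2, 1 and 0. Without the 3 arrays that were low in Xist, the RNA that coats the inactive X chromosome, which include gland replicate 3, they numbered 0.

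With the chosen probe sets, the order of the group means was nearly the same from gene to gene. In 33 of 36 genes it ran, from high to low, triple K5Cre, quadruple, triple Bcat, masses, ventral tumours and normal gland. Cenpe and Kif2c differed by having the ventral tumours above the masses, and Mki67 by having quadruple above triple K5Cre. With the chosen probe sets normal gland was lowest in all 36. Other probe sets of Cenpe and Kif2c had the masses above the ventral tumours, with means of 6.90 and 6.48 for Cenpe and, for the Kif2c set marked _x_at, of 7.88 and 7.58. Some sets that were not chosen left the common order instead. A set of Aspm had quadruple above triple K5Cre, at 6.82 and 6.68, and the ventral tumours above the masses, at 5.59 and 5.39. Dimmer sets of Cenpf and Kif11 showed both of these departures, so the order depended in part on the probe set. In the 5 comparisons fitted between the groups other than gland, 0 of 36 genes were called by limma. Triple K5Cre and triple Bcat were not fitted against the masses or the ventral tumours, nor the masses against the ventral tumours. Quadruple against triple K5Cre gave a median difference of -0.25 with 35 of 36 below 0, standard errors between 0.24 and 0.34, and 0 genes of the whole table called in limma (811 at an unadjusted p under 0.05). Triple K5Cre against triple Bcat gave a median of 0.55 and quadruple against triple Bcat a median of 0.31, with 0 of 36 mitotic genes called by limma in either and 1 and 0 at an unadjusted p under 0.05. Of all genes, 0% were called higher in each of these 3 comparisons, and 0%, 0.0385% and 0.033% lower in quadruple against triple K5Cre, triple K5Cre against triple Bcat and quadruple against triple Bcat. Quadruple against the masses gave a median of 0.65 and quadruple against the ventral tumours 0.99, with 0 of 36 called by limma and 3 and 17 at an unadjusted p under 0.05. There 0.0385% and 0.011% of all genes were called higher, and 0.176% and 0.132% lower.

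**Figure D2:**
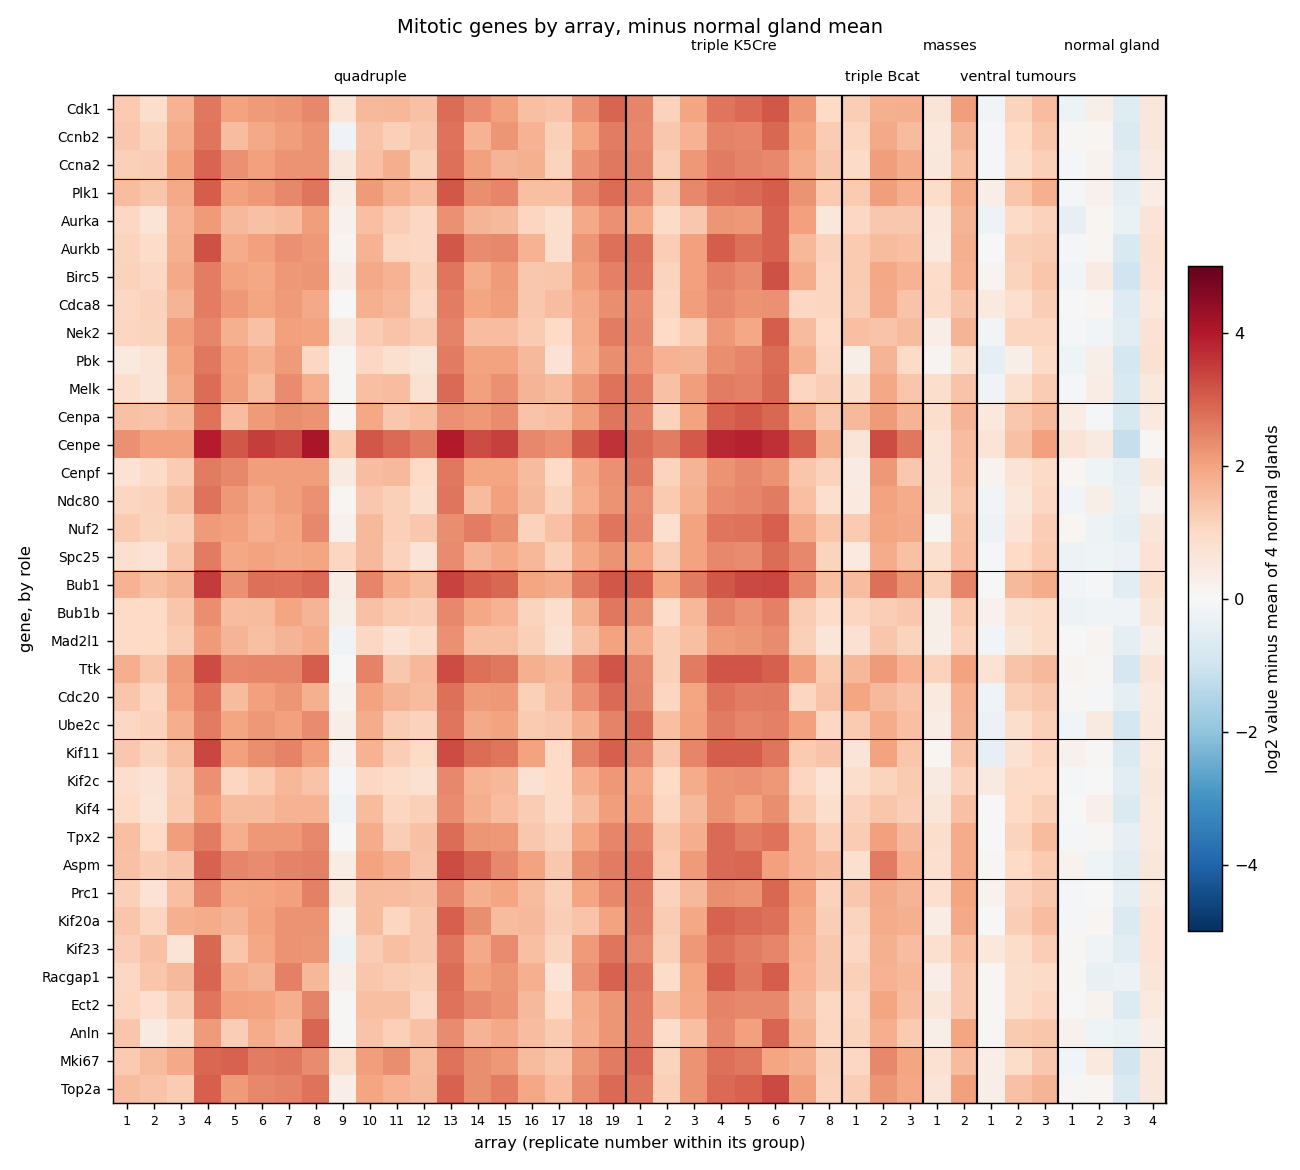
Log2 value of each of the 36 mitotic genes (rows, grouped by role between the horizontal lines) in each of the 39 arrays (columns, by group), minus the mean of the 4 normal glands, as a colour scale in log2 units. Most columns of the quadruple and triple K5Cre groups are red over their whole height, quadruple replicate 9 is near white, and the first of the 3 ventral tumours is near white beside 2 red ones.

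The mean of the 36 genes in each array shows how far the groups reached into each other. It lay between 6.69 and 9.17 with a median of 8.39 in quadruple breast, and between 7.59 and 9.17 with a median of 8.66 in triple K5Cre breast. It was 7.52, 8.34 and 8.04 in triple Bcat breast, 7.04 and 8.06 in the masses and 6.50, 7.44 and 7.74 in the ventral tumours. In the glands it was 6.42, 6.50, 5.82 and 6.98. Quadruple replicate 9, at 6.69, and the first ventral tumour, at 6.50, fell within the range of the glands, and every other breast or tumour array lay above it. Gene by gene, every triple K5Cre array was above every gland array for 35 of 36 genes, where 4.82% of all genes showed this. Every quadruple array was above every gland array for 6 of 36, namely Cdk1, Ccna2, Plk1, Cenpe, Prc1 and Mki67, where 0.654% of all genes showed it. Without quadruple replicate 9 this was the case for 34 of 36, where 1.71% of all genes showed it. The same count was 33 in triple Bcat, 22 in the masses and 3 in the ventral tumours, where 12.4%, 22.2% and 16.8% of all genes showed it.

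The genes are taken in turn by role, with the largest and smallest quadruple difference of each role given by array. All differences and standard errors are log2 values from the fit. Levels are log2 values of a probe set and are not compared between genes.

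CDK1 and its cyclins were represented by Cdk1, Ccnb2 and Ccna2, with quadruple differences between 1.67 and 1.84. Ccna2 encodes cyclin A2, which acts in S phase and early mitosis. Its values in quadruple breast were 8.13 at the lowest, 9.59 at the median and 10.48 at the highest, and in triple K5Cre breast 8.79, 9.84 and 10.17. They were 8.51, 9.67 and 9.41 in triple Bcat, 8.13 and 9.08 in the masses, 7.47, 8.42 and 8.76 in the ventral tumours and 7.52, 7.74, 6.99 and 8.02 in the glands. All arrays but the first ventral tumour lay above the highest gland. The difference from gland was 1.84 (SE 0.32, adjusted p = 9.45e-05) in quadruple and 2.00 (SE 0.33, adjusted p = 4.55e-05) in triple K5Cre by limma. Ccnb2, cyclin B2, a partner of CDK1, was between 6.73 and 9.61 in quadruple, with a median of 8.63, and 6.94, 6.98, 6.17 and 7.44 in gland. Only quadruple replicate 9 of that group fell among the glands for Ccnb2, and the difference was 1.67 (SE 0.36, adjusted p = 0.00112 in limma). Cdk1 itself, the kinase that drives entry into mitosis, averaged 8.62 ± 0.61 in quadruple arrays (SD, n = 19) and 6.72 ± 0.55 in glands (SD, n = 4).

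Among the mitotic kinases and the chromosomal passenger complex, all 8 genes rose in quadruple, by 1.37 to 2.01. Plk1, polo-like kinase 1, had a lowest, median and highest value of 6.38, 8.12 and 9.09 in quadruple and of 7.28, 8.42 and 9.0 in triple K5Cre. It stood at 7.30, 8.07 and 7.80 in triple Bcat, 6.89 and 7.85 in the masses, 6.34, 7.36 and 7.74 in the ventral tumours and 5.89, 6.20, 5.51 and 6.35 in the glands. Of the 35 breast and tumour arrays, the first ventral tumour was the one that did not exceed the highest gland, and quadruple replicate 9 exceeded it by little. The difference was 2.01 in quadruple (SE 0.35, adjusted p = 0.000101), 2.22 in triple K5Cre (SE 0.36, adjusted p = 4.07e-05) and 1.62 in triple Bcat (SE 0.51, adjusted p = 0.0476) by limma. Aurka, Aurora A of the spindle poles, had 6.36, 7.74 and 8.44 as lowest, median and highest in quadruple, and 5.74, 6.24, 5.81 and 6.80 in the glands. Its difference of 1.37 (SE 0.34, adjusted p = 0.00458 in limma) was the smallest of this role. Aurkb, Birc5 and Cdca8, the kinase of the passenger complex and its subunits survivin and borealin, had quadruple differences of 1.78, 1.74 and 1.73. Pbk, a mitotic serine/threonine kinase, had the smallest difference of all 36 genes in triple Bcat (0.87), the masses (0.46) and the ventral tumours (0.22), against 1.51 in quadruple and 1.96 in triple K5Cre.

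The kinetochore held the gene with the largest difference by the chosen probe sets. Cenpe encodes a kinesin motor that carries chromosomes along spindle microtubules. It stood at 6.08, 7.89 and 8.88 (lowest, median, highest) in quadruple and at 6.55, 7.79 and 8.61 in triple K5Cre. It stood at 5.44, 8.03 and 7.42 in triple Bcat, 5.48 and 6.31 in the masses, 5.44, 6.26 and 6.83 in the ventral tumours and 5.41, 5.22, 3.62 and 4.87 in the glands. All 35 breast and tumour arrays were above all 4 glands for Cenpe, although triple Bcat replicate 1 and the first ventral tumour, both at 5.44, exceeded the highest gland by little. The difference was 2.95 in quadruple (7.74-fold, SE 0.44, adjusted p = 1.1e-05) and 3.07 in triple K5Cre (8.39-fold, SE 0.45, adjusted p = 9.41e-06) by limma. The other Cenpe probe set was nearly as bright, with a mean of 7.10 over all arrays beside 7.18, and averaged 7.38 in quadruple and 5.41 in gland. Its difference of group means, 1.97, lay below that of Bub1, 2.32, and of Ttk, 2.22. Against the masses the quadruple difference in Cenpe was 1.86 (SE 0.60) with the chosen probe set, with an unadjusted p of 0.0038 and an adjusted p of 0.304 in limma. The other probe set had a narrower gap there, with means of 7.38 in quadruple and 6.90 in the masses, beside 7.74 and 5.89 for the chosen set. Spc25, a subunit of the NDC80 complex that holds microtubule ends, had the smallest kinetochore difference, 1.57 (SE 0.31, adjusted p = 0.000451 in limma). Its values were between 7.45 and 9.33 in quadruple, with a median of 8.45, and 6.50, 6.55, 6.45 and 7.47 in the glands, so the highest gland overlapped the lowest quadruple arrays. Ndc80 and Nuf2, which form the other arm of that complex, and Cenpf, a large outer kinetochore protein, had quadruple differences between 1.63 and 1.65. Cenpa, the centromeric histone H3 variant, had 1.75.

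Of the spindle checkpoint and its target, all 6 genes rose in quadruple, by 1.32 to 2.28. Bub1, a checkpoint kinase, stood at 6.08, 8.14 and 9.19 (lowest, median, highest) in quadruple and at 7.23, 8.52 and 9.05 in triple K5Cre. It stood at 7.25, 8.44 and 7.97 in triple Bcat, 6.90 and 8.15 in the masses, 5.71, 7.33 and 7.56 in the ventral tumours and 5.58, 5.60, 5.13 and 6.52 in the glands. For Bub1, quadruple replicate 9 and the first ventral tumour were below the highest gland and the other 33 breast and tumour arrays were above it. The difference was 2.28 in quadruple (4.86-fold, SE 0.42, adjusted p = 0.000182), 2.58 in triple K5Cre (SE 0.44, adjusted p = 5.56e-05) and 2.05 in triple Bcat (SE 0.62, adjusted p = 0.036) by limma. In the masses Bub1 had the largest difference of the 36 genes, 1.75 (SE 0.66), with an unadjusted p of 0.0121 and an adjusted p of 0.104 in limma. Mad2l1, MAD2, which binds and holds CDC20, had the smallest difference of this role. It lay between 7.74 and 10.17 in quadruple, with a median of 9.36, and at 7.93, 8.05, 7.46 and 8.19 in the glands, a difference of 1.32 (SE 0.31, adjusted p = 0.0025 in limma). Ttk, the kinase MPS1 at the head of the checkpoint, differed by 2.17. Cdc20, the activator of the anaphase-promoting complex, and Ube2c, its ubiquitin-conjugating enzyme, differed by 1.81 and 1.73.

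Among spindle motors and microtubule proteins, all 5 genes rose in quadruple, by 1.30 to 2.04. In triple Bcat their differences lay between 1.04 and 1.58, and 0 of 5 were called, where 1.74% of all genes were called higher. Aspm, a spindle pole protein, had 6.17, 8.12 and 9.04 (lowest, median, highest) in quadruple and 7.09, 7.87 and 8.65 in triple K5Cre. It had 6.60, 8.37 and 7.60 in triple Bcat, 6.61 and 7.64 in the masses, 5.83, 6.78 and 7.09 in the ventral tumours and 5.95, 5.57, 5.27 and 6.33 in the glands. The same 2 arrays, quadruple replicate 9 and the first ventral tumour, fell within the glands for Aspm. Its difference was 2.04 in quadruple (SE 0.38, adjusted p = 0.000178) and 2.06 in triple K5Cre (SE 0.39, adjusted p = 0.000212) by limma. Kif2c, MCAK, a kinesin that depolymerises microtubules, had the smallest quadruple difference of the 36 genes with its chosen probe set. It lay between 5.26 and 7.74, with a median of 6.61, in quadruple and at 5.29, 5.35, 4.78 and 5.88 in the glands, a difference of 1.30 (2.46-fold, SE 0.31, adjusted p = 0.00267 in limma). Its brighter probe set marked _x_at averaged 8.43 in quadruple and 6.43 in gland, a difference of 2.00, so that the place of Kif2c in the order depends on the probe set. Kif11, Eg5, the kinesin that pushes spindle poles apart, differed by 1.98 in quadruple, 0.72 in the masses and 0.43 in the ventral tumours with its chosen probe set. The size in the masses depended on the probe set. Another set averaged 7.21 in quadruple, 6.30 in the masses, 5.90 in the ventral tumours and 5.34 in gland. The dimmest set averaged 5.97 in quadruple, 4.735 in the masses, 5.05 in the ventral tumours and 4.738 in gland. Tpx2, which activates Aurora A on the spindle, and Kif4, a chromosome-bound kinesin, differed by 1.75 and 1.39 in quadruple.

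The 6 genes of the central spindle and cytokinesis rose in quadruple within a narrow range, 1.43 to 1.70. Ect2, the exchange factor that activates RhoA at the cleavage site, had 6.55, 8.30 and 9.19 (lowest, median, highest) in quadruple and 7.52, 8.66 and 9.06 in triple K5Cre. It had 7.52, 8.45 and 8.01 in triple Bcat, 7.10 and 7.83 in the masses, 6.58, 7.37 and 7.55 in the ventral tumours and 6.49, 6.67, 5.81 and 6.97 in the glands. For Ect2 too, quadruple replicate 9 and the first ventral tumour were the arrays that overlapped the glands. The difference was 1.70 in quadruple (SE 0.35, adjusted p = 0.000683) and 1.97 in triple K5Cre (SE 0.36, adjusted p = 0.000165) by limma. Anln, anillin, a scaffold of the contractile ring, lay between 7.42 and 10.25 in quadruple, with a median of 8.87, and at 7.55, 7.15, 7.02 and 7.67 in the glands. Its difference of 1.43 (SE 0.38) had the highest adjusted p of the 36, 0.00785 in limma. Prc1, a microtubule bundler, Kif20a, a kinesin, and Kif23 and Racgap1, which form centralspindlin, had quadruple differences of 1.64, 1.60, 1.67 and 1.67.

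Mki67 and Top2a act on mitotic chromosomes. Mki67 encodes Ki-67, the surface coat of mitotic chromosomes that pathologists stain to count cycling cells. It had 8.96, 10.36 and 11.10 (lowest, median, highest) in quadruple and 9.25, 10.25 and 10.97 in triple K5Cre. It had 9.18, 10.56 and 10.13 in triple Bcat, 8.93 and 9.73 in the masses, 8.50, 9.05 and 9.52 in the ventral tumours and 8.03, 8.63, 7.24 and 8.72 in the glands. All 19 quadruple arrays were above all 4 glands, as were all arrays of the other groups but the first ventral tumour. The difference was 2.08 in quadruple (4.21-fold, SE 0.33, adjusted p = 2.76e-05), 2.01 in triple K5Cre (SE 0.34, adjusted p = 5.84e-05) and 1.66 in triple Bcat (SE 0.48, adjusted p = 0.029) by limma. Top2a, topoisomerase II alpha, which untangles sister chromatids, lay between 8.17 and 10.81 in quadruple, with a median of 9.97, and at 7.90, 7.95, 7.11 and 8.41 in the glands. Its difference was 1.98 (SE 0.39, adjusted p = 0.000361 in limma).

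**Figure D3:**
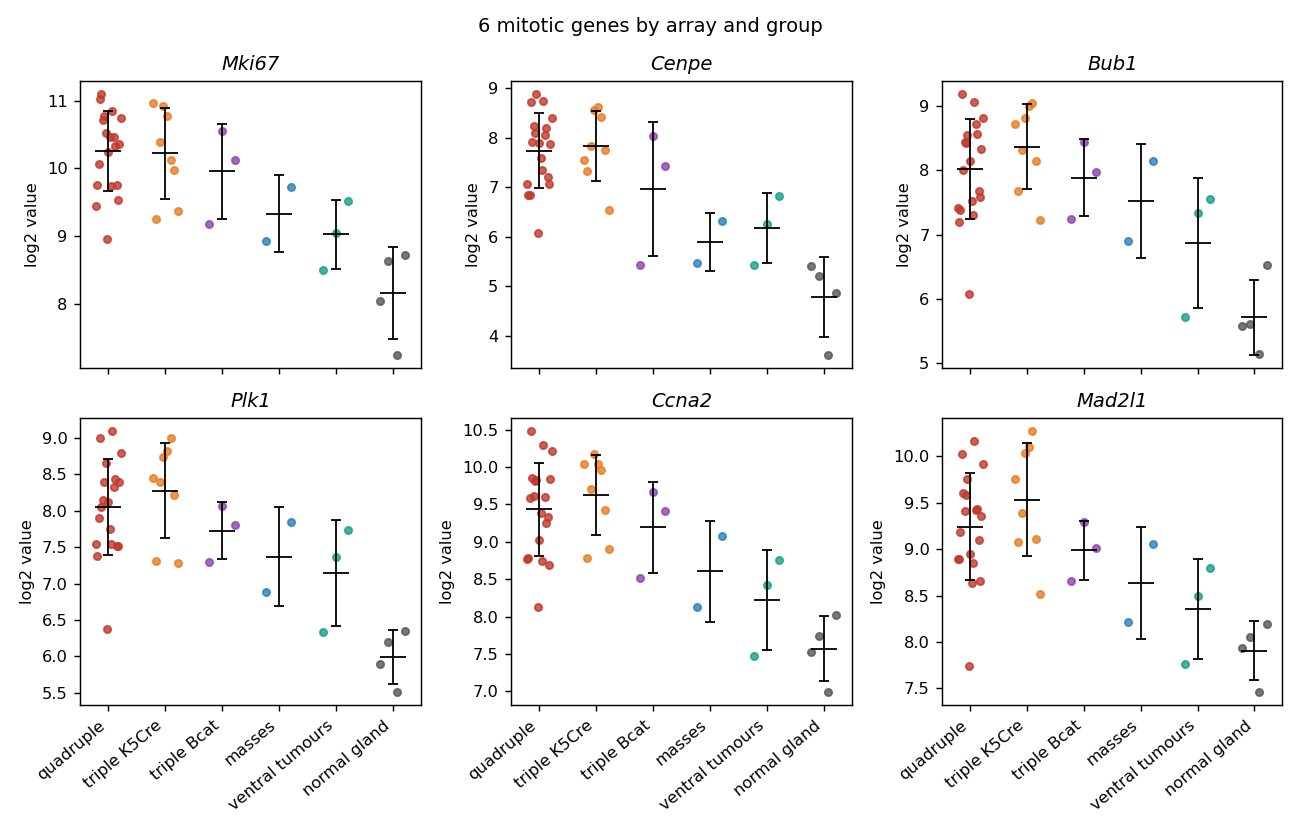
Log2 value of Mki67, Cenpe, Bub1, Plk1, Ccna2 and Mad2l1 in each array (points), by group, with the group mean and 1 SD (black bars); the vertical scales differ between panels and do not start at 0. The lowest quadruple point in each panel is replicate 9, and the first ventral tumour stands level with the glands or just above them.

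Within animals the samples ranged from near identity to a wide gap. Both Q190 arrays differed by a median of 0.10 over the 36 genes, and both Q2154 arrays by 0.51. The 3 arrays of Q648 spanned a median of 1.96, from 0.88 for Spc25 to 3.01 for Ttk, with replicate 9 lowest. Without replicate 9 the other 2 spanned a median of 0.52, from 0.01 for Pbk to 1.49 for Anln. The 3 ventral tumours of 1 mouse spanned a median of 1.28, from 0.55 for Kif2c to 1.85 for Bub1. Over the 15 quadruple animals, averaged within an animal first, the SD of a gene lay between 0.46 for Kif4 and 0.80 for Kif11, with a median of 0.54, beside a median SD of 0.30 over all genes. Without replicate 9 it lay between 0.45 and 0.78, with a median of 0.53. For animals T627 and T635 a breast and a gland array came from the same mouse. All 36 genes were higher in the breast sample of each, by a median of 1.81 in T627, from 1.09 for Bub1b to 3.71 for Cenpe, and of 1.40 in T635, from 0.56 for Nek2 to 2.96 for Cenpe. A paired limma fit of these 2 animals called 0 of 36 genes and 0 of all genes.

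The genes moved as a block across animals. Over the 15 quadruple animals, Pearson's r between pairs of the 36 genes was above 0 in 630 of 630 pairs, with a median of 0.88, a lowest value of 0.54 between Anln and Mki67 and a highest of 0.98 between Aurkb and Kif11. Without replicate 9 the median was 0.87 and the lowest value 0.53, with 630 of 630 above 0. Over the 8 triple K5Cre animals the median was 0.90 over 630 pairs. These points share their arrays and their tissue makeup, and the values are descriptions only. Plk1, Aurkb and Kif4 were closest to the mean of the other 35 in quadruple (r = 0.98 each) and Kif20a farthest from it (r = 0.79). Without replicate 9 Aurkb was closest (r = 0.98) and Kif20a farthest (r = 0.78). Outside the list, the genes most like the mean of the 36 over all 39 arrays were Sgo1 (r = 0.987), which guards centromeric cohesin, Ncapg (0.984), a condensin subunit, Shcbp1 (0.981), Kif22 (0.98), a chromokinesin, and Pclaf (0.978), which binds the replication clamp PCNA. Those with the most opposite pattern were Hsd11b1 (-0.861), an enzyme that makes active glucocorticoid, Arhgap29 (-0.832) and Ralgapa2 (-0.822).

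Mki67 departed from the block in 1 array. Its value lay above the mean of the 36 genes by 1.42 to 2.71 in 38 of the 39 arrays and by 0.95 in triple K5Cre replicate 6, animal T848. That array had a mean of the 36 genes of 9.17, the highest of its group, and Aurka and Top2a at 9.08 and 11.14, also the highest of the group, with Mki67 at 10.12. Mki67 was not alone in this. Aspm was low there too, at 7.82, a gap of -1.34 from that mean, beside -0.93 at the lowest in the other groups. For Cenpe, with its chosen probe set, the same gap ran from -1.21 to 0.22 in quadruple and from -1.35 to -0.35 in triple K5Cre. It ran from -2.09 to -0.31 in triple Bcat, from -1.18 to -0.90 in the ventral tumours and from -2.20 to -1.01 in the glands, and was -1.56 and -1.75 in the masses. The low place of Cenpe in the masses was not seen with its other probe set. That set averaged 7.38 in quadruple, 6.90 in the masses and 5.41 in gland, beside means of the 36 genes of 8.22, 7.55 and 6.43.

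Several of the genes had further probe sets, which gave a second reading. The 36 genes had 76 probe sets, with 14 genes read by 1 and 22 by several. Of the 40 probe sets not chosen, 39 had a higher mean in quadruple than in gland. All 15 with a mean of at least 6 were higher by at least 1, from 1.08 to 2.00. Of the 25 with a mean under 6, 24 were higher and 7 by at least 1, and the lowest, for Top2a, was at -0.08. With each gene's probe sets averaged, 36 of 36 genes were called higher in quadruple and in triple K5Cre and 4 in triple Bcat.

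In all 5 comparisons with gland the median differences of the fat and muscle markers were below 0, while those of the mitotic genes were above 0. The median difference of the 12 adipocyte genes was -5.12 in quadruple, -5.76 in triple K5Cre, -5.61 in triple Bcat, -6.88 in the masses and -6.63 in the ventral tumours. With the adipocyte and muscle means as covariates, 0 of 36 mitotic genes were called in any comparison with gland, and 72 of all genes were called in quadruple where 2794 were called without them. In that fit the median mitotic difference was 0.70 in quadruple, 0.90 in triple K5Cre and 0.32 in triple Bcat, and it turned to -0.20 in the masses and -0.44 in the ventral tumours. The fat and muscle level of gland was reached or approached by few arrays outside it. Quadruple replicate 9, near gland in both with means of 10.67 and 10.2, had a mitotic mean of 6.69, within the gland range. No other array named here was near the gland level in both fat and muscle. Quadruple replicate 2 had an adipocyte mean of 11.55, within the gland range, a muscle mean of 4.92 and a mitotic mean of 7.51, above every gland. It also had the highest B cell and T cell marker means of its group, 7.96 and 7.92, beside group medians of 4.21 and 5.4. Triple K5Cre replicate 7, with a muscle mean of 10.82, had a mitotic mean of 8.19, and quadruple replicate 5, with a muscle mean of 10.43, had 8.39. Both Q190 arrays, quadruple replicates 1 and 12, had muscle means of 9.47 and 9.44, below the gland range, and lower mitotic means, 7.65 and 7.69. Ventral tumours 2 and 3, with muscle means of 8.25 and 7.64, had mitotic means of 7.44 and 7.74. The masses and ventral tumours had the lowest mitotic means of the 5 groups while their adipocyte means, 5.48 to 6.22, were near the low end of the quadruple range. The glands lay at 11.37 to 11.79 in the adipocyte mean and 10.23 to 11.66 in the muscle mean. Since only quadruple replicate 9 was near them in both, the fits with covariates cannot tell gland tissue from its fat and muscle content. How much of the mitotic difference the change in fat and muscle accounts for was not tested.

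Markers of some other cell types moved between the groups too, and their counts stand beside the shares of all genes. Of all genes, 5.7% were called higher and 9.66% lower in quadruple, and 7.44% and 9.79% in triple K5Cre. They were 1.74% and 5.38% in triple Bcat, 2.6% and 4.68% in the masses and 0.813% and 3.22% in the ventral tumours. Of 8 neutrophil genes, 0 were called in quadruple and triple K5Cre against gland, with median differences of 0.94 and 0.79. In triple Bcat, the masses and the ventral tumours 4, 3 and 3 of the 8 rose, with medians of 3.69, 3.39 and 3.86. Of 14 squamous epithelial genes 4 rose in quadruple, 1 in the masses and 0 in the other groups, with medians of 3.59 in quadruple, 3.28 in triple K5Cre, 5.27 in triple Bcat, 5.88 in the masses and 6.08 in the ventral tumours. Of 10 endothelial genes 6 fell in quadruple (median -1.09) and 2 in triple K5Cre (median -0.85), and of 10 fibroblast genes 3 and 4 fell. Of 10 luminal epithelial genes 1 fell in quadruple and 1 in triple K5Cre, near the shares of all genes, with medians of -0.76 and -0.62. The luminal medians were -1.81 in triple Bcat, -1.47 in the masses and -2.26 in the ventral tumours, with 0 called. Of 10 basal epithelial genes 1 rose and 1 fell in quadruple, and 1 rose and 2 fell in triple K5Cre. Of 9 macrophage genes 1 fell in quadruple and 1 in triple K5Cre, also near those shares. Of 7 B cell, 7 T cell and 4 erythroid genes 0 were called in any of the 5. The part of these cell types in the mitotic differences was not tested.

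**Figure D4:**
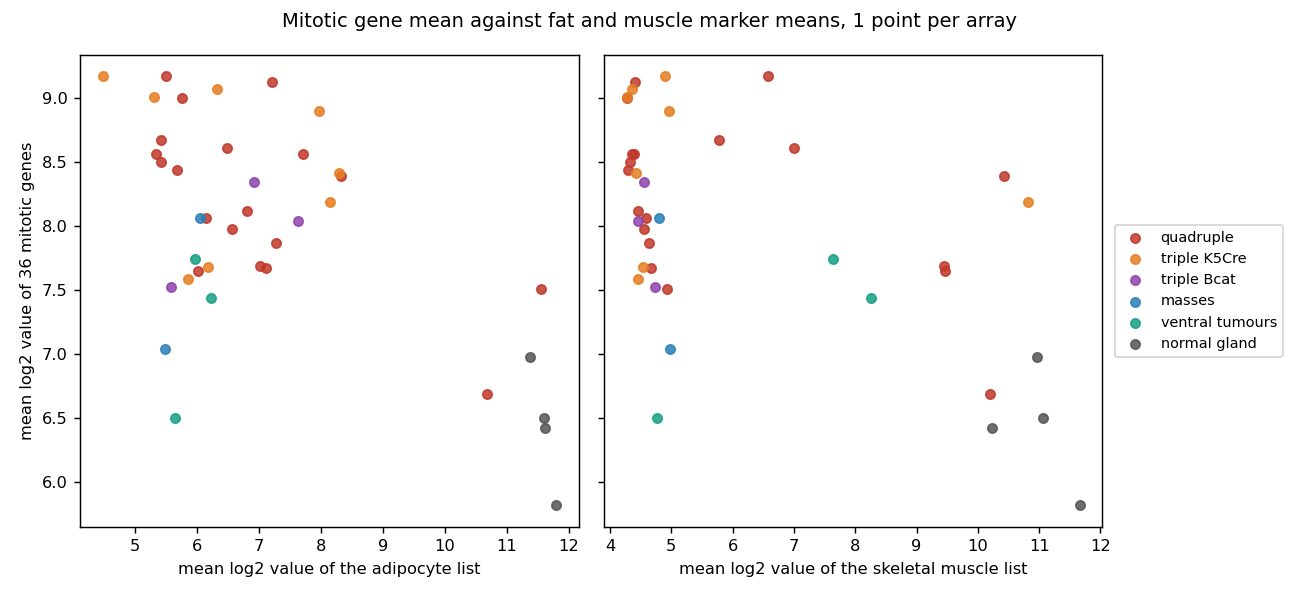
Mean log2 value of the 36 mitotic genes (vertical axis) against the mean of the adipocyte list (left) and of the skeletal muscle list (right), 1 point per array, coloured by group. The 4 glands sit at the lower right of both panels, quadruple replicate 9 lies beside them, and among arrays with an adipocyte mean under 7 the mitotic mean runs from 6.50 to 9.17.

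Other genes of the same processes were read from lists. Their counts stand beside the shares of all genes, which were 5.7% called higher and 9.66% lower in quadruple, 7.44% and 9.79% in triple K5Cre, 1.74% and 5.38% in triple Bcat, 2.6% and 4.68% in the masses, and 0.813% and 3.22% in the ventral tumours. Of 29 other kinetochore and checkpoint genes, 20 rose in quadruple, 22 in triple K5Cre, 1 in triple Bcat, 1 in the masses and 0 in the ventral tumours, and 0 fell in any of the 5. Ska1, which helps kinetochores hold shrinking microtubules, rose by 1.77 in quadruple (SE 0.42, adjusted p = 0.00278 in limma) and by 2.03 in triple K5Cre. Bub3, a checkpoint adaptor, was the gene called in the masses, at 1.06 (SE 0.26, adjusted p = 0.0089 in limma). Of 18 cohesin and condensin genes, 11 rose and 1 fell in quadruple, and 12 rose and 1 fell in triple K5Cre. Ncapg rose by 2.11 in quadruple and 2.43 in triple K5Cre, and Sgo2a, a shugoshin, by 2.00 and 2.22. The gene that fell was Pttg1, securin, the inhibitor of separase, by 0.55 in both (adjusted p = 0.0174 in quadruple and 0.0207 in triple K5Cre in limma), with means of 10.86 in quadruple, 10.86 in triple K5Cre and 11.40 in gland.

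Of 14 genes of the anaphase-promoting complex list, 1 rose and 1 fell in quadruple, with a median difference of 0.03, and 2 rose and 1 fell in triple K5Cre. Of all genes, 5.7% rose and 9.66% fell in quadruple, and 7.44% and 9.79% in triple K5Cre. The gene that rose in both was Fbxo5, EMI1, an inhibitor of the complex rather than a subunit, by 1.62 in quadruple and 1.63 in triple K5Cre. Anapc13, a small subunit, fell in all 5 comparisons, by 0.41 in quadruple (SE 0.11, adjusted p = 0.00974 in limma) and by 0.72 in the ventral tumours (SE 0.19, adjusted p = 0.0211 in limma).

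Of 23 DNA replication genes, 19 rose in quadruple, 23 in triple K5Cre, 2 in triple Bcat, 1 in the masses and 1 in the ventral tumours, where 5.7%, 7.44%, 1.74%, 2.6% and 0.813% of all genes rose in that order. Rrm2, a subunit of ribonucleotide reductase, rose in all 5 groups, by 2.40, 2.34, 1.91, 2.44 and 2.33 in the order quadruple, triple K5Cre, triple Bcat, masses and ventral tumours. Of 21 cell cycle transcription factors, 10 rose in quadruple and 10 in triple K5Cre, and E2f8, a repressor of the E2F family, rose in all 5 groups, by 1.88, 1.74, 2.09, 1.86 and 1.94 in the same order. Rrm2 and E2f8 were thus called in the ventral tumours, where 0 of the 36 mitotic genes were. Whether their difference there exceeds that of the mitotic genes was not tested.

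Of 11 G1 cyclins and their kinases, 4 rose in quadruple and 5 in triple K5Cre, among them Ccne2, cyclin E2, at 1.25 and 1.37. That list also holds Cdc25c, a phosphatase that activates CDK1, at 1.35 in triple K5Cre. Of 7 CDK inhibitors, 2 rose and 1 fell in quadruple, where 5.7% of all genes rose and 9.66% fell. Cdkn1a, p21, rose by 1.86 in quadruple (SE 0.50, adjusted p = 0.00781 in limma) and by 2.26 in triple K5Cre. Cdkn2a, the locus of p16 and p19ARF, rose by 2.31 in quadruple, 3.16 in triple K5Cre, 3.65 in the masses and 3.73 in the ventral tumours. Cdkn2c, p18, fell in all 5 groups, by 2.18 in quadruple (SE 0.31, means 8.97 in quadruple and 11.12 in gland) and by 3.07 in the ventral tumours (SE 0.51). The lists share their 4 gland arrays with the mitotic genes, and 0 genes of these 7 lists of cell cycle and mitotic processes were called by limma in the 5 comparisons that leave gland out. Among the cell type lists, 1 of 8 neutrophil genes was lower in quadruple than in the masses and 2 of 8 lower than in the ventral tumours, with medians of -2.67 and -2.72. There 0.176% and 0.132% of all genes were called lower.

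Since the 36 genes moved together, their promoters were read for letters known from late cell cycle genes. The CHR (cell cycle genes homology region, letters TTTGAA) is bound by the MuvB complexes that repress these genes in resting cells and activate them before mitosis. CCAAT is bound by NF-Y, and E2F factors bind cores such as TTCCCGC and TTGGCGC. Windows of 250 bases before to 50 after a gene's start, from RefSeq on mouse GRCm38.p6, were searched on both strands. A window was used for 32 of the 37 genes, Ccnb1 included; Ccna2, Aurkb, Pbk, Kif20a and Tpx2 were not used here. The CHR letters were in 24 of 32 (75.0%), beside 20.2% of 27025 genes. CCAAT was in 25 of 32 (78.1%), beside 41.1%. Both were in 21 of 32 (65.6%), beside 8.0%, while an E2F core was in 4 of 32 (12.5%), beside 7.8%. Matches were counted wherever the letters occurred, also where neighbouring motifs share letters, as CCAAT on the opposite strand can with the second E2F core, and a match is a description, not a bound site. The letters did not sort the genes by size of difference, since Cenpe and Bub1, with 2.95 and 2.28 in quadruple, had no CHR letters in their windows, and neither did Mad2l1, with 1.32.

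**Figure D5:**
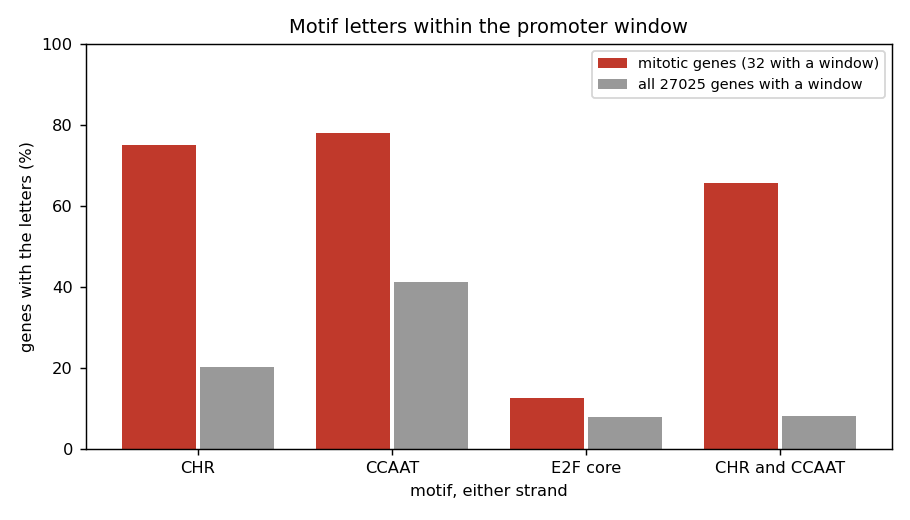
Share of genes (vertical axis, percent) whose promoter window holds the letters of each motif on either strand, for the 32 mitotic genes with a window (red) and for all 27025 genes with a window (grey). The CHR and CCAAT letters together were in 65.6% of the mitotic genes and 8.0% of all genes.

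The 200 bases before the start are printed for 5 genes of different roles that hold both motifs there, to show how the letters lie close to each other. Each reads 5′ to 3′ on the gene's own strand, and capitals mark the CHR and CCAAT letters, written as TTCAAA and ATTGG where they lie on the opposite strand. They are Cdk1 (chr10:69352913-69353112, minus strand), Ect2 (chr3:27153855-27154054, minus), Mki67 (chr7:135716380-135716579, minus), Cdc20 (chr4:118437344-118437543, minus) and Kif11 (chr19:37376182-37376381, plus).
Cdk1: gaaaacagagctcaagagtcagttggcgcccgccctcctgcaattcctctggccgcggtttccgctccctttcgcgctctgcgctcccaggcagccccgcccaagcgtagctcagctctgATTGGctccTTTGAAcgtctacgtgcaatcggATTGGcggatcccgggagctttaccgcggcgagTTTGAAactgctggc
Ect2: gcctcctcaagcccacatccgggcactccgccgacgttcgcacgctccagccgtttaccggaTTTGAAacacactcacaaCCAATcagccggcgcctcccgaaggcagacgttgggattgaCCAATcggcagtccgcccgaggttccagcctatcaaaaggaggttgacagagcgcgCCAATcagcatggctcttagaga
Mki67: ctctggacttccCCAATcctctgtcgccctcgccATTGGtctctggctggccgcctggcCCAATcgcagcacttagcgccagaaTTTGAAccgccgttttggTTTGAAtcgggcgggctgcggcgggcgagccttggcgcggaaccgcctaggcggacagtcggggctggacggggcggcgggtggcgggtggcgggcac
Cdc20: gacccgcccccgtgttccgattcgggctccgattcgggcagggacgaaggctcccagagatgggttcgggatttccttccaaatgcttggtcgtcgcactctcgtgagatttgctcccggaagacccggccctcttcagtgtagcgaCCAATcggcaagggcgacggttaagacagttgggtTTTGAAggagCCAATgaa
Kif11: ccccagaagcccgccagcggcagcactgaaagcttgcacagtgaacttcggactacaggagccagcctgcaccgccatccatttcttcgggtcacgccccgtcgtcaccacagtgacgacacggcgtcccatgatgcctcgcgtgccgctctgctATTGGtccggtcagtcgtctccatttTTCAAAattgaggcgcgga

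In Cdk1 a CHR match began 71 and another 15 bases before the start, with CCAAT at 80 and 48 bases on the opposite strand. In Mki67 the CHR matches began 116 and 98 bases before the start, in Cdc20 the 1 match lay 18 bases before it and in Kif11 19 bases before it. These genes differed from gland by 1.81 (Cdk1), 1.70 (Ect2), 2.08 (Mki67), 1.81 (Cdc20) and 1.98 (Kif11) in quadruple breast.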

How the data were processed

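Total RNA of 39 mouse tissue samples was measured on Affymetrix arrays after 3' IVT Express labelling, per the labels' protocols. The deposited values are log2 expression of 45101 probe sets made with RMA, per the submitters' processing notes, with no version named in the sources used here. RMA subtracts background, equalises the arrays' distributions and summarises probes, so low values sit near a floor. Detection calls were not used here.

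Probe sets carrying 1 gene in the platform annotation (34958) gave 18194 genes, each read by its brightest probe set, with _x_at sets used only where a gene had no other; 932 probe sets with several genes were not named. One limma 3.58.1 model (R 4.3.3) was fitted to the 6 groups, with the animal as a random block (correlation 0.329) and a mean-variance trend. It gave 10 comparisons, with Benjamini-Hochberg adjustment over all genes. Values by array are given for the genes with the largest and the smallest quadruple difference of each role; other genes complete a role or were named after their values were seen. List genes named were among the up to 2 called rises and 2 called falls of largest difference in their list and comparison. The mitotic genes, the 19 lists and the tests were chosen with earlier results of these data known. Several arrays of an animal share that animal, and no label says which samples were processed together. Alternatives were array weights, no block, the groups compared alone, cyclic loess, leaving out the genes of lowest mean, the mean of all probe sets, fat and muscle covariates, a paired fit of 2 animals and leaving out single arrays. Fits that left out the 3 low-Xist arrays or quadruple replicate 9 were chosen after seeing the data. Promoter windows were read with Python 3.11.15.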

Additional observations from a re-analysis of the deposited data

Results flagged for a closer look

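For each of the 36 genes, groups of 4 to 10 arrays were searched for a highest or lowest array set apart from the rest by most of the group's range, which gave 72 searches, and chance marks about 1 in 20 of such groups. It marked 2 values, both high and both in normal gland replicate 4, the gland of animal T635. Spc25 stood at 7.474 there, with 6.50, 6.55 and 6.45 in the other glands. Bub1b stood at 6.757 in the same array. That gland also had the highest mean of the 36 genes among the 4 glands, 6.98.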

How the results depend on the processing

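In quadruple and triple K5Cre against gland, 35 or 36 of 36 genes were called under every alternative but those named here. With adipocyte and muscle covariates the count was 0 in both and 0 in triple Bcat against gland, and the median difference reversed to -0.195 in the masses and -0.438 in the ventral tumours. The replicate block of the paired fit of 2 animals called 0 in triple K5Cre and 0 of all genes. In triple Bcat the main count of 9 became 36 with array weights, 21 with no replicate block, 27 with only the groups compared, 20 with cyclic loess, 4 with the mean of all probe sets and 0 without the 3 arrays low in Xist. Leaving out single arrays gave 0 to 7. Where the groups compared alone allowed no estimate of the animal correlation, that of all arrays was taken. In the masses against gland, array weights gave 12 and the groups compared 6. Array weights gave 22 in the ventral tumours against gland, 1 in quadruple against the masses and 18 against the ventral tumours. The cause of these changes was not tested. Counts over all genes moved as well. With array weights they were 6749 in quadruple, 6366 in triple K5Cre, 6581 in triple Bcat, 4226 in the masses and 5717 in the ventral tumours against gland, where the main counts were 2794, 3134, 1296, 1324 and 734 in that order. With covariates they were 72, 52, 14, 5 and 7. Leaving out single glands gave 1671 to 2253 in quadruple, which was 3204 without quadruple replicate 9, and 1770 to 2655 in triple K5Cre. In the masses, single glands left out gave 744 to 1179, and counts with 1 mass left are not given. Leaving out single arrays of either group gave 381 to 1279 in triple Bcat and 260 to 686 in the ventral tumours. Without the 3 arrays low in Xist they were 1741, 1856, 743, 836 and 302. The groups compared alone gave 2033 in triple Bcat, 3682 in the masses and 4398 in the ventral tumours, and no block gave 2009 in the last. Among the comparisons without gland, array weights gave 2557 in quadruple against triple Bcat, 498 against the masses, 3759 against the ventral tumours and 2551 in triple K5Cre against triple Bcat, where the main counts were 6, 39, 26 and 7. With few arrays per group outside quadruple, a difference that missed the threshold is not shown to be absent.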
